A study of Mus musculus with 2 samples.

Results

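Oxidative phosphorylation (OXPHOS) is carried out by 5 protein complexes of the inner mitochondrial membrane, and most of their subunits are encoded in the nucleus. The genes described here are these nuclear-encoded subunits, taken as every gene symbol that begins with Ndufa, Ndufb, Ndufc, Ndufs or Ndufv and a digit, with Uqcr, with Cox4 to Cox8 or with Atp5, plus Sdha, Sdhb, Sdhc and Sdhd, without pseudogene symbols. The rule reads gene symbols alone, although the set was proposed with earlier results of these data known. It gave 91 of the 53700 features of the count tables, under 90 symbols because Atp5o stands under 2 identifiers. Of these, 40 belong to complex I, 4 to complex II, 8 to complex III, 19 to complex IV and 18 to complex V. These counts keep Ndufs6b, Ndufb4c and Ndufa11b of complex I and Cox6c2 of complex IV. The annotation gives them as processed pseudogenes, although their symbols do not show it. Cox7a2l, a supercomplex assembly protein, and Ndufa4l2, a paralog of the complex IV subunit Ndufa4, are listed apart.

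Complexes I and II pass electrons from NADH and succinate to ubiquinone, complex III passes them on to cytochrome c, and complex IV, cytochrome c oxidase, passes them to oxygen. The protons pumped on the way drive complex V, the ATP synthase. Oxidative muscle fibres hold more mitochondria than fast glycolytic ones. Several complex IV subunits have isoforms that are characteristic of heart and skeletal muscle, among them Cox6a2, Cox7a1 and Cox8b, beside the widely expressed Cox6a1, Cox7a2 and Cox8a.

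Single-nucleus RNA was counted in quadriceps of WT and PTRF knockout mice, all C57BL/6N and 3 months old, with 1 library per genotype. PTRF, now Cavin1, is a coat protein of caveolae. The labels do not give how many mice entered a library or their sex. With 1 library per genotype nothing could be tested between genotypes: each difference is between 2 libraries, and every interval is an exact 95% interval that covers counting error only.

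The WT library held 10272 nuclei with 9741924 unique molecular identifiers (UMIs, each one counted molecule) and a median of 703 per nucleus. The knockout library held 7762 nuclei with 16045678 UMIs and a median of 1562. Cavin1 had 75 UMIs in WT and 2 in the knockout. UMIs of Y-linked genes without Xist marked 2721 WT and 3103 knockout nuclei, while Xist without Y-linked UMIs marked 2 and 1527, so the knockout library alone held many nuclei of both kinds. The libraries shared 24 barcodes. No doublets were removed, and Xist stood together with Y-linked UMIs in 221 knockout nuclei. Nuclei called myonuclei-like from muscle markers numbered 7155 in WT and 5452 in the knockout. They lay mostly in different clusters, 2, 3, 4 and 9 in WT and 0, 5, 7 and 10 in the knockout. Cluster 1, with 2179 WT and 27 knockout nuclei, was left unnamed because 3 of its 10 leading genes, Gm10800, Gm10801 and Chl1, were on a list of repeat-rich and neuronal transcripts. Its first leading genes were Dytn, Dnajc22 and Gm36198. Its summed pan-myonuclear markers, 109348 CPM, were as high as those of the clusters 2, 3 and 4 named myonuclei-like, which had 110116, 111728 and 110038 CPM, and counting it as myonuclei turned the sign of the members' sum given below.

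The promoters of Cox8b, Cox8a, Cox6a1 and Ndufa6 are printed to compare a muscle isoform with widely expressed subunits of complex IV, and to show the complex I gene with the highest ratio of knockout over WT. The promoter table used here has no entry for Cox6a2, whose ratio was the lowest. Each line gives the 250 bases before the RefSeq start site on GRCm38.p6, read 5′ to 3′ on the minus strand, with matches to the motifs searched in capitals. They are chr7:140900447-140900696 for Cox8b, chr19:7217617-7217866 for Cox8a, chr5:115348959-115349208 for Cox6a1 and chr15:82354292-82354541 for Ndufa6.
Cox8b: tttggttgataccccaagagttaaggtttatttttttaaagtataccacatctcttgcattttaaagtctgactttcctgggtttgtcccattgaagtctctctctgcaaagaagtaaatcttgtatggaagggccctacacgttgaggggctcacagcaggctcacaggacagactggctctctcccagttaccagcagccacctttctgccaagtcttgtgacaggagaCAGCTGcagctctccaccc
Cox8a: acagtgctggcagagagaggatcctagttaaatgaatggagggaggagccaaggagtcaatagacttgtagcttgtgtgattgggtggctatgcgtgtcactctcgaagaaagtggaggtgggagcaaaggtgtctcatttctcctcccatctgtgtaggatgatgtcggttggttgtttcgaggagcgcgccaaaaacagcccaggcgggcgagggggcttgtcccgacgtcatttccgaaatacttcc
Cox6a1: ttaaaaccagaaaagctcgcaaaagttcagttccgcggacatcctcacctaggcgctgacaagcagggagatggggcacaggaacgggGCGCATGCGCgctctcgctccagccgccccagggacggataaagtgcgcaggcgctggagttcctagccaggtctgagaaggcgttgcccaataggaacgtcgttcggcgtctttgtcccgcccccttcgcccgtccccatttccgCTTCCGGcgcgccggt
Ndufa6: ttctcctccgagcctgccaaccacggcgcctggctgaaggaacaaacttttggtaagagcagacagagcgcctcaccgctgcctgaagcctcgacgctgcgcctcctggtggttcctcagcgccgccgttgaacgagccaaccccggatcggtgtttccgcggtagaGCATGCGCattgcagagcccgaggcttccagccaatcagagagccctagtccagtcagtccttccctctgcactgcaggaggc

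RefSeq gave a promoter for 69 of the 90 symbols. Both strands were searched. Members entered with the first promoter of each symbol, whereas the share of all promoters was taken over every entry. The letters GCATGCGC of the site bound by NRF1, a factor known for activating respiratory genes, stood in 8 of the 69 (11.6%) and in 2.26% of all 32851 promoters of the same length. They were found for Atp5g2, Atp5k, Atp5l, Cox6a1, Ndufa11, Ndufa6, Ndufa8 and Sdhb. The ETS-family motif CCGGAAG stood in 11 (15.9%) and in 6.91%. The muscle E-box CAGCTG stood in 6 (8.70%) and in 13% of all promoters, and the TATA letters TATAAA in 7 (10.1%) and in 12.4%. The letters TCAAGGTCA, known from estrogen-related receptors, were found for Atp5g3 alone, or 1.45% beside 0.387% of all promoters. None of these motifs contains another. In the lines above, Cox6a1 carries 2 overlapping NRF1 matches on opposite strands, 162 and 160 bases before the start, and an ETS match at 16 bases, Ndufa6 carries an NRF1 match at 83 bases, Cox8b carries an E-box at 19 bases, and Cox8a carries none of the motifs. These matches are letters in a window and show no binding.

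In myonuclei-like nuclei the members together held close to the same share of the transcripts in both libraries. Their sum was 2279 CPM (counts per 1000000 UMIs of the class; 2245 to 2314) in WT against 2185 CPM (2159 to 2211) in the knockout, a log2 ratio of knockout over WT of -0.06 (-0.09 to -0.03). Complexes I, II and III had log2 ratios of 0.01 (-0.03 to 0.06), -0.01 (-0.10 to 0.07) and -0.01 (-0.11 to 0.09). Complex IV was at 257 CPM in WT against 227 CPM in the knockout, a log2 ratio of -0.18 (-0.26 to -0.10). Complex V was at 587 and 525 CPM, a log2 ratio of -0.16 (-0.22 to -0.11). The sum depended on the nuclei counted: it kept its sign in 10 of 17 alternatives and ranged from -0.44 to 0.13 on the log2 scale. Complex IV turned to 0.05 thinned to 500 UMIs, and complex V to 0.01 with each nucleus weighted equally. The summed markers of other cell types within myonuclei-like nuclei were lower in the knockout for every list but the mural one. In WT and the knockout, 10 fibro-adipogenic genes summed to 62.65 and 33.1 CPM, 9 macrophage genes to 33.8 and 9.99 CPM and 8 blood endothelial genes to 36.8 and 6.68 CPM. The 9 mural genes summed to 282 and 378 CPM, and the 10 adipocyte genes to 284 and 259 CPM. Among these lists 1 macrophage marker was at 0 in WT and 1 mural marker in the knockout. Lymphatic endothelial genes summed to 24.2 and 7.01 CPM, satellite to 18.75 and 8.13, T or NK to 22.8 and 4.51. B genes summed to 19.6 and 2.66 CPM, Schwann to 26.1 and 15.6, tenocyte to 12.2 and 2.335, erythroid to 15.5 and 13. Of these, 2 T or NK and 1 tenocyte marker were at 0 in WT. At 0 in the knockout were 2 satellite, 2 T or NK and 1 tenocyte marker. The part of such RNA in the sums was not tested.

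Of the 91 members, 78 had at least 50 UMIs over both libraries in myonuclei-like nuclei, and ratios of single members are described for these. The 13 others were Cox4i2, Ndufa1, Cox7b2, Cox6b2, Cox7a1, Ndufs6b, Ndufa4l2, Cox6c2, Cox8c, Ndufb4c, Ndufb11b, Ndufa11b and Ndufs8, of which 5 had 0 UMIs. The median log2 ratio was -0.05 over the 78 members and 0.01 over all 11152 genes with as many UMIs. At least 1.5-fold lower in the knockout were 6 members (7.69%), beside 18.8% of all genes. At least 1.5-fold higher were 2 members (2.56%), beside 12.9% of all genes. Within 1.5-fold lay 70 members, or 89.7%, beside 68.2% of all genes. The counting interval lay below 0 for 23 members (27% of all genes), above 0 for 6 (28.4% of all genes) and included 0 for 49. WT and knockout CPM of the 78 members had a Spearman rho of 0.92 and a Pearson r of 0.95 across genes, which share 2 libraries and are no replicates.

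**Figure D1:**
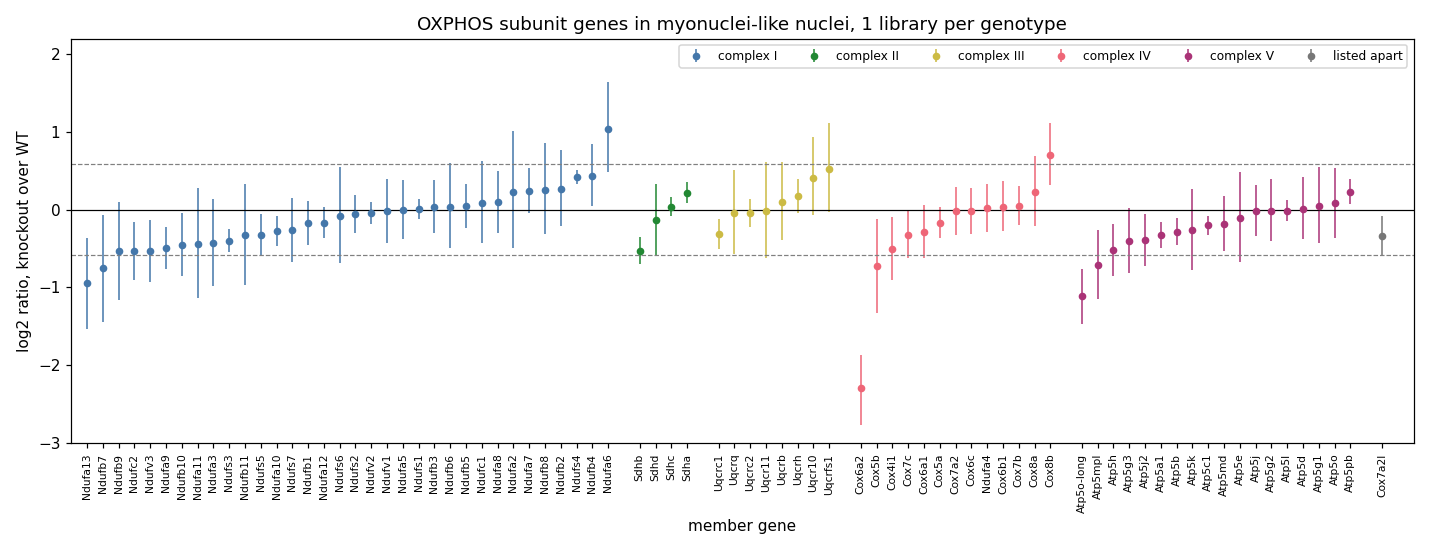
Log2 ratio of knockout over WT (vertical axis) for the 78 members with at least 50 UMIs, ordered within each complex (colours), with exact 95% counting intervals as bars and dashed lines at 1.5-fold. Cox6a2 stands lowest at -2.30 and Ndufa6 highest at 1.04, and most other members lie between the dashed lines; Atp5o-long is the 242.6 kb Atp5o feature.

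Among the core and accessory subunits of complex I, 2 of 34 were at least 1.5-fold lower and 1 was higher, beside the 18.8% and 12.9% of all genes. Ndufa6, an accessory subunit (chromosome 15, 82350140 to 82354322, GRCm38, minus strand), had 34 WT and 119 knockout UMIs, that is 4.62 CPM (3.20 to 6.46) against 9.58 CPM (7.94 to 11.5). Its log2 ratio was 1.04 (0.49 to 1.65), and the intervals of the libraries did not overlap. Ndufa13, also known as GRIM-19, had 56 and 49 UMIs, or 7.61 and 3.95 CPM, a log2 ratio of -0.95 (-1.53 to -0.37). The annotated span of Ndufa13 overlaps Yjefn3 on its own strand, so the origin of part of its UMIs is uncertain. Ndufb7 had 38 UMIs in each library and was 1.69-fold lower in the knockout, at 5.16 and 3.06 CPM. The intervals of the libraries overlapped, while the interval of its log2 ratio, -0.755 (-1.44 to -0.07), lay just below 0. Just under the 1.5-fold mark, Ndufc2 was 1.45-fold lower and Ndufb9 also 1.45-fold lower, the interval of Ndufb9 including no difference. Ndufb9 and Ndufc2 each overlap a predicted gene on the same strand.

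Ndufs4, an accessory subunit whose loss is a known cause of Leigh syndrome, held more of the members' UMIs than any other gene in both libraries. It spans 100.5 kb (chromosome 13, 114287795 to 114388258, minus strand), and longer member genes tended to have more nuclear UMIs, with a Spearman rho of 0.67 in WT and 0.68 in the knockout across the 78 members. Ndufs4 had 1629 WT UMIs at 221 CPM (211 to 232) and 3685 knockout UMIs at 297 CPM (287 to 306.5), a log2 ratio of 0.42 (0.34 to 0.51). It made up 9.71% of all member UMIs in WT and 13.6% in the knockout. Without Ndufs4 the log2 ratio of the sum was -0.12 (-0.15 to -0.10). The log2 ratio of knockout over WT itself showed little relation to gene length, with a rho of 0.07. Ndufs1, the largest core subunit, was level at 103 and 104 CPM, a log2 ratio of 0.01 (-0.12 to 0.14). Accessory subunits with log2 ratios above 0 included Ndufb4 at 0.43 (0.04 to 0.84), Ndufb2 at 0.27 (-0.21 to 0.78) and Ndufb8 at 0.25 (-0.31 to 0.86). Among these, the interval of Ndufb4 alone lay above 0.

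Complex II, which is also the succinate dehydrogenase of the citric acid cycle, gave opposite values for its catalytic pair. Sdha, the flavoprotein, had 675 WT and 1324 knockout UMIs, that is 91.7 CPM (84.9 to 98.9) against 107 CPM (101 to 112), a log2 ratio of 0.22 (0.08 to 0.35). Sdhb, the iron-sulfur subunit, had 484 and 567 UMIs, or 65.8 CPM (60.0 to 71.9) against 45.7 CPM (42.0 to 49.6), a log2 ratio of -0.53 (-0.70 to -0.35). Sdhb stayed below 0 in all 12 alternatives, between -0.70 and -0.35, while Sdha kept its sign in 9 of 12. The membrane anchors Sdhc and Sdhd had log2 ratios of 0.04 (-0.08 to 0.17) and -0.13 (-0.58 to 0.33).

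Sdhb was lower in the knockout in nuclei led by Myh4, the gene of the fastest fibre type, while in nuclei led by Myh1 or Myh2 its interval included 0. A nucleus is called led by the gene with strictly the most UMIs among Myh4, Myh1 and Myh2. In Myh4-led nuclei Sdhb was at 48.3 CPM (42.2 to 55.0) in WT against 33.4 CPM (29.9 to 37.2) in the knockout, a log2 ratio of -0.53 (-0.78 to -0.28). In Myh1-led nuclei it was at 100.3 and 101 CPM, and in Myh2-led nuclei at 125 and 122.5 CPM, with log2 ratios of 0.02 (-0.36 to 0.39) and -0.03 (-0.48 to 0.41). The difference between these ratios was not tested.

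In complex III none of 8 members passed 1.5-fold, beside the shares of all genes given above. Uqcrfs1, the Rieske iron-sulfur protein, had 38 and 93 UMIs, a log2 ratio of 0.53 (-0.02 to 1.12). Uqcr10 had 50 and 113 UMIs, a log2 ratio of 0.41 (-0.07 to 0.93). The core protein Uqcrc1 was at 49.9 and 40.2 CPM, a log2 ratio of -0.31 (-0.51 to -0.11), and its partner Uqcrc2 at 55.2 and 53.7 CPM, a log2 ratio of -0.04 (-0.22 to 0.14). Within this complex only the interval of Uqcrc1 left out 0.

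Complex IV held the widest spread, and its muscle isoforms differed in opposite directions. Cox6a2 (chromosome 7, 128205435 to 128206387, minus strand, 1.0 kb, inside the span of Itgad on the other strand) had 167 UMIs in WT and 57 in the knockout. This was 22.7 CPM (19.4 to 26.4) against 4.59 CPM (3.48 to 5.95), 4.92-fold lower in the knockout, a log2 ratio of -2.30 (-2.77 to -1.86). Its widely expressed counterpart Cox6a1 was at 17.4 CPM (14.5 to 20.7) against 14.3 CPM (12.3 to 16.6), a log2 ratio of -0.28 (-0.62 to 0.06). Cox8b (chromosome 7, 140898945 to 140900446, minus strand, 1.5 kb) had 75 and 207 UMIs, or 10.2 CPM (8.02 to 12.8) against 16.7 CPM (14.5 to 19.1), a log2 ratio of 0.70 (0.32 to 1.11). Its counterpart Cox8a was at 8.70 CPM (6.70 to 11.1) against 10.2 CPM (8.53 to 12.2), a log2 ratio of 0.23 (-0.21 to 0.69). Thus the intervals of the libraries were apart for Cox6a2 and Cox8b and overlapped for Cox6a1 and Cox8a. Cox7a1, the third muscle isoform, had only 9 and 19 UMIs, and its counterpart Cox7a2 was at 18.8 and 18.5 CPM.

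Cox6a2 was lower in the knockout in nuclei of each leading myosin gene. In Myh4-led nuclei it was at 18.8 CPM (15.1 to 23.2) in WT against 3.99 CPM (2.85 to 5.43) in the knockout. In Myh1-led nuclei the values were 26.8 CPM (18.2 to 38.0) against 3.93 CPM (1.28 to 9.17). In Myh2-led nuclei they were 31.7 CPM (20.5 to 46.8) against 15.5 CPM (7.44 to 28.5), and there the intervals overlapped, on 25 and 10 UMIs. In the unnamed cluster 1 of WT it was at 27.4 CPM (19.8 to 37.0). All 12 alternatives gave a value below 0, between -2.37 and -1.68.

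Cox6a2 UMIs were also counted in nuclei that should lack a muscle isoform. Pooled over the named classes other than myonuclei, with 938 WT and 2264 knockout nuclei, Cox6a2 was at 9.41 CPM (4.06 to 18.5) on 8 UMIs in WT against 2.51 CPM (1.15 to 4.77) on 9 UMIs in the knockout. In WT fibro-adipogenic-like nuclei it was at 17.1 CPM (5.55 to 39.9), an interval that includes the level of myonuclei-like nuclei, and in WT adipocyte-like nuclei at 0 of 250126 UMIs. The log2 ratio of myonuclei-like over other named nuclei was 1.19 (0.26 to 2.51) for Cox6a2 in WT and 0.97 for the pan-myonuclear marker list, whose level in the other nuclei was 55271 CPM in WT against 25849 CPM in the knockout. In the knockout these log2 ratios were 0.80 (-0.16 to 2.07) and 1.94. The make-up of the pools differed. Adipocyte-like nuclei held 2052203 of 3581660 UMIs of the knockout pool and 250126 of 850403 in WT. The pan-myonuclear list was at 16188 CPM in cluster 6, which held most knockout adipocyte-like nuclei, and at 42145 CPM in the fibro-adipogenic-like cluster. The part of this make-up in the pooled levels and ratios was not tested. The 13 mitochondrially encoded subunits, whose RNA is made outside the nucleus, were also lower in the knockout library, at 112 and 80.1 CPM, a log2 ratio of -0.49 (-0.62 to -0.35). Rn18s, the ribosomal RNA, made up 7.33% and 2.86% of myonuclear UMIs. The part of RNA from outside the nucleus in the Cox6a2 difference was not tested.

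**Figure D2:**
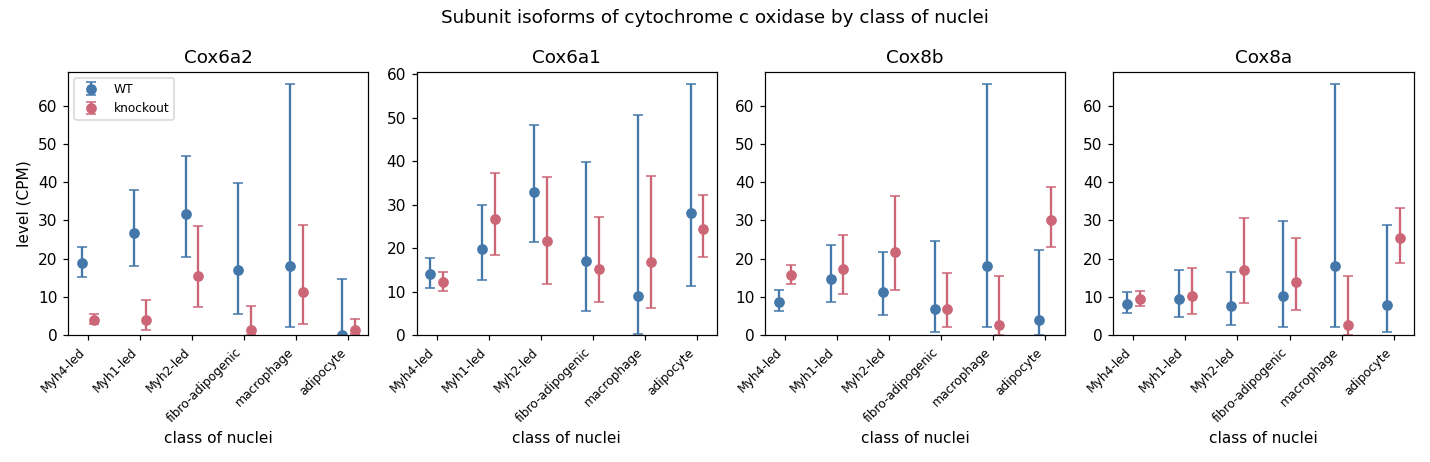
Level in CPM (vertical axes, each from 0) of the isoform pairs Cox6a2 and Cox6a1, and Cox8b and Cox8a, in 6 classes of nuclei for WT (blue) and knockout (red), with exact 95% counting intervals as bars. Cox6a2 in Myh4-led nuclei stands at 18.8 CPM in WT and at 3.99 CPM in the knockout, whereas Cox6a1 and Cox8a intervals overlap there.

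Cox8b was higher in the knockout in Myh4-led nuclei, at 8.68 CPM (6.23 to 11.8) against 15.8 CPM (13.4 to 18.4). In Myh1-led and Myh2-led nuclei its intervals overlapped, at 14.7 and 17.3 CPM and at 11.4 and 21.7 CPM. All 12 alternatives gave a value above 0, between 0.60 and 1.08. Cox8b was also counted outside muscle. Pooled over the named classes other than myonuclei, it stood at 5.88 CPM on 5 WT UMIs. The same classes of the knockout library gave 20.1 CPM on 72 UMIs. Most of these 72 were counted in adipocyte-like nuclei, as given below. Adipocyte-like nuclei held 2052203 of the 3581660 UMIs of the knockout pool and 250126 of the 850403 UMIs of the WT pool. The pooled levels thus mix classes in unlike parts. For WT, the log2 ratio of myonuclei-like over the pooled nuclei was 0.67, with an interval of -0.49 to 2.46. For the knockout it was -0.28, with an interval of -0.66 to 0.14. Whether the Cox8b difference is particular to myonuclei was not tested. Other complex IV members past or near the mark were on the low side. Cox5b, a zinc-binding subunit, had 48 and 49 UMIs, a log2 ratio of -0.72 (-1.33 to -0.12). Cox4i1, the regulatory subunit that binds ATP, was at 13.3 and 9.42 CPM, a log2 ratio of -0.50 (-0.90 to -0.10), and it overlaps a gene on its own strand. Cox5a and Cox7b, with the most UMIs of the complex, had log2 ratios of -0.17 (-0.36 to 0.03) and 0.05 (-0.19 to 0.31), and Cox6b1 one of 0.04 (-0.28 to 0.37). Cox4i2, the lung isoform, and Cox6b2, the testis isoform, had 1 and 0 UMIs in WT and 0 and 2 in the knockout. Cox7a2l, listed apart, was at 31.8 and 25.2 CPM, a log2 ratio of -0.34 (-0.58 to -0.09).

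In complex V, leaving out the long Atp5o feature described below, 13 of 17 members had a log2 ratio below 0, beside 49.5% of all genes. The intervals of 6 lay below 0 and of 1 above, beside the 27% and 28.4% of all genes. Without that feature the log2 ratio of the sum was -0.14 (-0.19 to -0.08) in place of -0.16. The F1 rotor shaft subunit Atp5c1 was at 125 CPM (117 to 133) in WT against 109 CPM (103 to 114.5) in the knockout, a log2 ratio of -0.20 (-0.32 to -0.08). The catalytic F1 subunits Atp5a1 and Atp5b had log2 ratios of -0.33 (-0.49 to -0.16) and -0.28 (-0.46 to -0.10). Atp5pb, of the peripheral stalk, was on the other side at 0.23 (0.07 to 0.39). Atp5mpl, a small membrane subunit, had 86 and 89 UMIs, a log2 ratio of -0.71 (-1.15 to -0.26). The genes of the membrane ring subunit c, which encode the same mature protein, had log2 ratios of 0.05 (-0.43 to 0.55) for Atp5g1, -0.01 (-0.41 to 0.39) for Atp5g2 and -0.40 (-0.81 to 0.03) for Atp5g3. Atp5l, with many UMIs, was level at 99.2 and 98.5 CPM.

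Atp5o gave different values under its 2 identifiers. The feature of 6.5 kb had 67 and 120 UMIs, a log2 ratio of 0.08 (-0.36 to 0.54). The feature of 242.6 kb (chromosome 16, 91684398 to 91926982) had 159 and 124 UMIs, or 21.6 and 9.99 CPM, a log2 ratio of -1.11 (-1.46 to -0.77). The long feature spans Atp5o, Cryzl1 and Donson on its own strand and Itsn1 on the other, so its UMIs cannot be assigned to the Atp5o subunit.

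The members' sum differed more between nuclei of different leading myosin genes than between the libraries. In WT, their sum was 1885 CPM (1846 to 1925) in Myh4-led, 3213 CPM (3111 to 3318) in Myh1-led and 3334 CPM (3207 to 3464) in Myh2-led nuclei. In the knockout it was 1903 CPM (1876 to 1930), 3449 CPM (3348 to 3553) against 3657 CPM (3511 to 3808). Myh4, Myh1 and Myh2 mark the IIb, IIx and IIa fibres, from most glycolytic to most oxidative of the fast types. The log2 ratio of Myh2-led over Myh4-led nuclei was 0.82 (0.76 to 0.89) in WT against 0.94 (0.88 to 1.00) in the knockout. That of Myh1-led over Myh4-led was 0.77 (0.71 to 0.82) and 0.86 (0.81 to 0.91). Myh2-led and Myh1-led nuclei were close, at 0.05 (-0.02 to 0.12) and 0.09 (0.01 to 0.16). These contrasts lie within 1 library each. They kept their sign in all 13 alternatives, with Myh2-led over Myh4-led between 0.77 and 0.88 in WT and between 0.83 and 1.06 in the knockout.

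**Figure D3:**
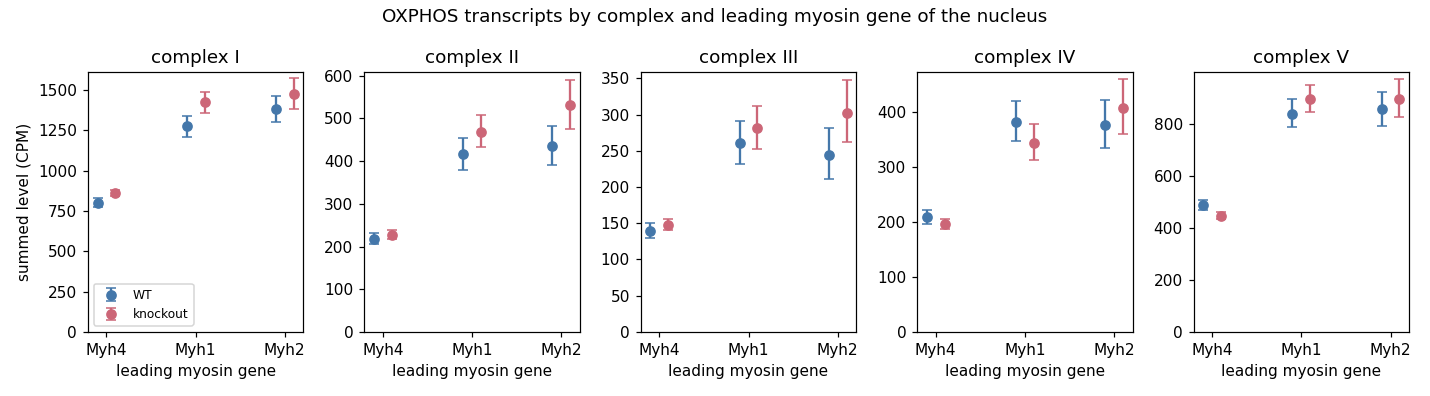
Summed level of each complex in CPM (vertical axes, each from 0) in nuclei led by Myh4, Myh1 or Myh2 (horizontal axis), for WT (blue) and knockout (red) with exact 95% counting intervals. In every complex and both libraries the Myh4-led nuclei lie below the other groups, for example at 488 CPM against 855 CPM in Myh2-led WT nuclei for complex V.

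Each complex followed this order between Myh4-led and Myh2-led nuclei. In WT the log2 ratios were 0.78 for complex I, 1.00 for complex II, 0.81 for complex III, 0.85 for complex IV and 0.81 for complex V. In the knockout they were 0.78, 1.22, 1.03, 1.06 and 1.01 in the same order. All of these intervals lay above 0. Complex II had the highest value in either library, with intervals of 0.81 to 1.17 (WT) and 1.05 to 1.38 (knockout). The interval of complex I, 0.69 to 0.88 (WT) and 0.68 to 0.87 (knockout), overlapped that of complex II in WT and lay below it in the knockout.

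Member by member, 41 of the 53 with at least 50 UMIs were at least 1.5-fold higher in Myh2-led than in Myh4-led WT nuclei, beside 17.9% of all genes. In the knockout these were 56 of 69, beside 24.3% of all genes. No member was 1.5-fold lower in either library, beside 18.6% and 18.3% of all genes. Of 53 members with enough UMIs in both libraries, 35 passed in both, beside 12.1% of all genes. For Myh1-led over Myh4-led nuclei 38 of 55 members passed in WT, beside 14% of all genes, and 51 of 70 in the knockout, beside 18.5%; none was lower, beside 13.6% and 15.3%. The median log2 ratio of Myh2-led over Myh4-led was 0.81 over the members in WT and 1.00 in the knockout, beside 0.03 and 0.09 over all genes.

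Ndufb3, a small accessory subunit of complex I, had the highest ratio in WT. It was at 10.4 CPM in Myh4-led and 36.8 CPM in Myh2-led WT nuclei, a log2 ratio of 1.83 (1.11 to 2.52), and at 11.6 and 46.5 CPM in the knockout, 2.02 (1.38 to 2.60), where Atp5k was highest at 2.13. Cox7b was at 19.7 and 55.8 CPM in WT, 1.51 (0.95 to 2.03), and at 21.8 and 76.0 CPM in the knockout, 1.82 (1.33 to 2.26). Sdhb had log2 ratios of 1.38 (1.02 to 1.72) and 1.88 (1.5 to 2.23), and Sdha of 1.02 (0.70 to 1.32) and 1.05 (0.76 to 1.32). Cox6a2 had 0.77 (0.05 to 1.40) in WT against 2.01 (0.79 to 2.98) in the knockout. Ndufs4 had 0.84 (0.63 to 1.04) and 0.81 (0.63 to 0.98). For some members an interval included 0. Atp5g2 was at -0.33 (-1.80 to 0.72) and 0.37 (-0.87 to 1.27), on 7 and 9 Myh2-led UMIs. The long Atp5o feature was at -0.10 (-1.03 to 0.65) and -0.14 (-1.93 to 1.00), on 15 and 5. In WT both intervals lay below the 0.82 of the members' sum, and in the knockout both included its 0.94. Atp5d was at 1.03 (0.08 to 1.84) in WT but -0.38 (-2.17 to 0.75) on 5 Myh2-led UMIs in the knockout.

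**Figure D4:**
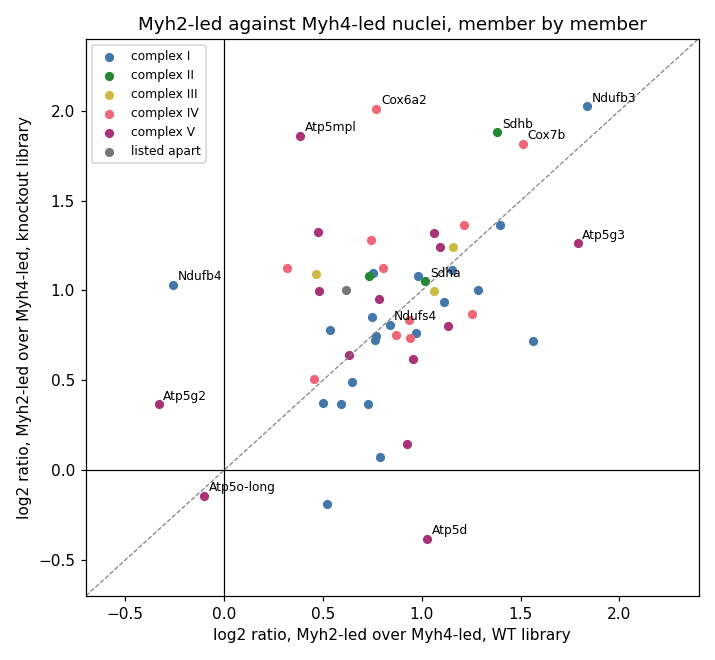
Log2 ratio of Myh2-led over Myh4-led nuclei in WT (horizontal axis) and in the knockout (vertical axis) for the 53 members with at least 50 UMIs in both libraries, coloured by complex, with the dashed line marking equal ratios. Of the 53 points, 35 are at least 1.5-fold higher in both libraries, beside 12.1% of all genes. Above 0 in both lie 48, for which no share of all genes was computed. Ndufb3 at 1.83 and 2.02 stands at the upper right.

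Within each leading class, the libraries differed little in the members' sum. The log2 ratio of knockout over WT was 0.01 (-0.02 to 0.05) in Myh4-led, 0.10 (0.04 to 0.17) in Myh1-led and 0.13 (0.05 to 0.21) in Myh2-led nuclei. The median over all genes in the same classes was 0.03, 0.15 and 0.17. In Myh4-led nuclei 5 of 75 members were at least 1.5-fold lower and 2 higher, beside 16.2% and 13.5% of all genes. In Myh1-led nuclei 1 of 38 was lower and 1 higher, beside 7.78% and 16.1%. In Myh2-led nuclei 2 of 24 were lower and 0 higher, beside 7.42% and 18.3%. In nuclei without a leading gene 0 of 15 were lower and 3 higher, beside 8.12% and 28.6%. Complex V in Myh4-led nuclei was at -0.13 (-0.20 to -0.06), and at -0.10 (-0.17 to -0.02) without the long Atp5o feature. Intervals above 0 were found for complex I in Myh4-led nuclei, at 0.10 (0.05 to 0.16), and in Myh1-led nuclei, at 0.16 (0.06 to 0.26). In Myh2-led nuclei they were found for complex II, at 0.29 (0.07 to 0.51), and complex III, at 0.31 (0.01 to 0.60). In nuclei without a leading gene complexes I, II, IV and V lay above 0, at 0.29, 0.42, 0.43 and 0.34. The members' sum there was at 0.32 (0.21 to 0.43), beside a median of 0.27 over all genes in the same nuclei. Ndufs4 had an interval above 0 in each class, with log2 ratios of 0.54, 0.44 and 0.52. Ndufa6 likewise had 0.69 (0.03 to 1.45), 1.59 (0.31 to 3.27) and 2.92 (1.09 to 6.37), the last on 2 and 15 UMIs.

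The mix of leading genes differed between libraries beside this. Myh4-led nuclei held 64.2% of the myonuclear UMIs in WT and 80.7% in the knockout, Myh1-led 15.7% and 10.2%, and Myh2-led 10.7% and 5.19%. Nuclei without a leading gene, also part of the mix, held 9.365% and 3.84%. Of these nuclei, 723 in WT and 259 in the knockout had 0 UMIs of Myh4, Myh1 and Myh2. A lead of only 1 UMI stood behind 1517 of 7155 WT and 522 of 5452 knockout nuclei. The part of depth in the mix was not tested. With the class levels of the knockout and the mix of WT, the members' sum would be 2413 CPM, a log2 ratio to WT of 0.08 in place of -0.06. With the class levels of WT and the mix of the knockout it would be 2109 CPM, a log2 ratio of -0.11. At the WT mix the log2 ratios of complexes I, II and III would be 0.13, 0.16 and 0.13, and those of complexes IV and V -0.01 and 0.00. The knockout mix alone would move every complex by a like amount, from -0.11 to -0.13. The sums of complexes IV and V lay below the others with and without this adjustment. Single genes weigh in these sums. Ndufs4 held 1629 of 7032 WT and 3685 of 11975 knockout UMIs of complex I. Cox6a2 held 167 of 1893 and 57 of 2821 UMIs of complex IV. The member medians, without the adjustment, were -0.07, -0.045, 0.04, -0.02 and -0.19 for complexes I to V. By the median, complex V alone lay below the others.

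Depth of the nucleus moved with the level, and in opposite directions in the libraries. In WT myonuclei-like nuclei the members' sum was 2113 CPM at 700 to 1500 UMIs, 2549 CPM at 1500 to 3000 and 2803 CPM from 3000 UMIs up. In the knockout the values were 2320, 2265 and 2070 CPM. The log2 ratio of knockout over WT was therefore 0.13 (0.08 to 0.19), -0.17 (-0.22 to -0.12) and -0.44 (-0.49 to -0.38) in these ranges. In Myh4-led nuclei alone it was 0.20 (0.13 to 0.26), -0.11 (-0.18 to -0.04) and -0.21 (-0.30 to -0.13), so the order held within that class. Thinned to 500 UMIs each, 62.5% (61.3 to 63.8) of 5961 WT and 65.2% (63.9 to 66.5) of 5452 knockout myonuclei-like nuclei had a member UMI, against 76.2% and 93.6% without thinning. A further 1194 WT nuclei were too shallow to thin. The part of depth in the ratios was not tested beyond these values.

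**Figure D5:**
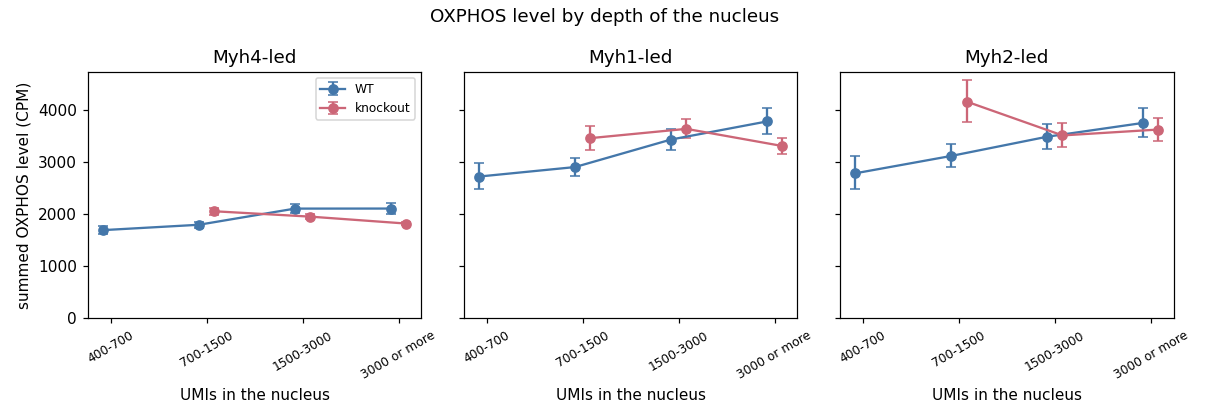
Summed OXPHOS level in CPM (vertical axis from 0) by the number of UMIs in the nucleus (horizontal axis) for Myh4-led, Myh1-led and Myh2-led nuclei of WT (blue) and knockout (red), with exact 95% counting intervals and groups of at least 30 nuclei. Among Myh4-led nuclei WT goes from 1792 CPM at 700 to 1500 UMIs to 2103 CPM from 3000 up, and the knockout from 2051 to 1815 CPM.

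Complexes IV and V were also compared by sex-linked transcripts. Among knockout myonuclei-like nuclei, 2757 were marked by Y-linked UMIs and 576 by Xist. Complex IV was at 212.5 CPM in the first and 266 CPM in the second, a log2 ratio of 0.32 (0.14 to 0.50), and complex V at 511 and 639 CPM, also 0.32 (0.21 to 0.44). These pooled values mix fibre classes, since 2278 of the 2757 Y-marked but 371 of the 576 Xist-marked nuclei were Myh4-led. Within Myh4-led nuclei complex IV was at 0.26 (0.01 to 0.50) and complex V at 0.20 (0.03 to 0.35). In Myh1-led nuclei they were at -0.44 (-0.93 to 0.01) and 0.06 (-0.19 to 0.30), and in Myh2-led nuclei at -0.03 (-0.50 to 0.41) and -0.05 (-0.36 to 0.25). All members together were lower in Xist-marked than in Y-marked nuclei of the last 2 classes, at -0.19 (-0.33 to -0.06) and -0.17 (-0.33 to -0.03). Depth differed too. The median was 1098 UMIs in Y-marked WT, 2339 in Y-marked knockout and 1584 in Xist-marked knockout nuclei. It was 750 and 1778 UMIs in all myonuclei-like nuclei of WT and the knockout. The part of depth in the ratios of marked nuclei was not tested. Between Y-marked nuclei of both libraries the log2 ratio of knockout over WT was -0.40 (-0.51 to -0.27) for complex IV and -0.33 (-0.41 to -0.25) for complex V. In Myh4-led, Myh1-led and Myh2-led nuclei apart it was -0.16 (-0.32 to 0.01), -0.29 (-0.55 to -0.03) and -0.04 (-0.37 to 0.28) for complex IV. For complex V it was -0.22 (-0.32 to -0.12), -0.03 (-0.20 to 0.14) and 0.05 (-0.18 to 0.27). Between Xist-marked knockout and Y-marked WT nuclei it was -0.07 (-0.27 to 0.12) and -0.01 (-0.13 to 0.12). Among Y-marked nuclei 11 of 69 members were at least 1.5-fold lower and 3 higher, beside 13.6% and 12.4% of all genes. Cox6a2 was lower between Y-marked nuclei and in Xist-marked knockout against Y-marked WT nuclei, at -2.35 and -1.68.

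Outside muscle, adipocyte-like nuclei had higher levels in the knockout. The members' sum was 1491 CPM on 373 UMIs in 252 WT nuclei against 2677 CPM on 5493 UMIs in 1085 knockout nuclei, a log2 ratio of 0.84 (0.69 to 1.00). The median over all genes with at least 50 UMIs in this class was 0.25. Different clusters hold this class in the libraries, cluster 13 in WT and cluster 6 in the knockout. Cluster 13 had a marker score of 2.16, near the limit of 2, none of its markers among its 10 leading genes and pan-myonuclear transcripts at 38709 CPM, against 5.38, 2 markers and 16188 CPM in cluster 6. Their part in the difference was not tested. With so few WT UMIs most members would pass a minimum only through the knockout, so members are not counted here. Ndufs4 had 27 and 449 UMIs, a log2 ratio of 0.99 (0.46 to 1.64), and Ndufs1 had 11 and 264, at 1.49 (0.69 to 2.57). Sdhb had 18 and 126 UMIs, at -0.26 (-0.95 to 0.57), and Atp5a1 had 18 and 139, at -0.12 (-0.80 to 0.71). Complex IV had the highest log2 ratio, 1.39 (0.94 to 1.93), and complex II the lowest, 0.24 (-0.16 to 0.70). Cox8b had 1 UMI in WT and 62 in the knockout, a log2 ratio of 2.34 (0.39 to 8.24). Atp5k had 0 and 122 UMIs, a fold of at least 4.96 against a floor of 3 UMIs in WT. Cox8b and Atp5k would also pass a minimum only through the knockout. The class held 250126 UMIs in WT and 2052203 in the knockout. Members that are low in the knockout could not have stood out in this way. The values of Cox8b and Atp5k are therefore given as examples, and no conclusion is drawn from them.

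Fibro-adipogenic-like nuclei were close in the libraries, with a log2 ratio of -0.09 (-0.24 to 0.07) for the sum. Macrophage-like nuclei had 1398 CPM (1186 to 1637) in WT against 1815 CPM (1678 to 1961) in the knockout, a log2 ratio of 0.37 (0.12 to 0.64). The median log2 ratio over all genes with at least 50 UMIs was 0.29 in fibro-adipogenic-like and 0.24 in macrophage-like nuclei.

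Other lists of mitochondrial genes were set beside the subunits in myonuclei-like nuclei. The shares of all genes past 1.5-fold, 18.8% lower and 12.9% higher, apply to each list. Of 37 assembly factors with at least 50 UMIs, 1 was at least 1.5-fold lower in the knockout and 3 were higher, with a log2 ratio of the sums of 0.03 (-0.01 to 0.07). Of 17 genes of the citric acid cycle and pyruvate dehydrogenase, 1, Idh2, was lower and 0 higher, with sums at -0.19 (-0.23 to -0.16). Of 64 mitochondrial ribosomal protein genes 4 were lower and 3 higher, with sums at 0.12 (0.08 to 0.16). Of 57 cytosolic ribosomal protein genes, whose mature transcripts are abundant in the cytoplasm, 15 were lower and 1 higher, with sums at -0.19 (-0.24 to -0.14) and a median of -0.36. Of 13 regulators of mitochondrial genes 3 were lower and 1, the rRNA methyltransferase Tfb1m, higher, with a median of -0.03. The lower 3 were Esrrg and Esrrb, nuclear receptors known to bind OXPHOS gene promoters, and Perm1, a muscle regulator induced by them. Esrrg was at 1353 CPM in WT against 747 CPM in the knockout, a log2 ratio of -0.86 (-0.90 to -0.82), Esrrb at 77.3 and 29.6 CPM, -1.38 (-1.58 to -1.19), and Perm1 at 23.2 and 11.1 CPM, -1.06 (-1.40 to -0.73). The coactivator Ppargc1a was level, at 299 and 313 CPM, a log2 ratio of 0.07 (-0.01 to 0.14). All these ratios are pooled over leading myosin genes and were not adjusted for their mix. Myh4-led nuclei held 64.2% of the myonuclear UMIs in WT and 80.7% in the knockout. The sums of the regulators and citric acid cycle genes were lower in Myh4-led than in Myh2-led nuclei, as given below. The part of the mix in these ratios was not tested.

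By fibre type these lists differed from one another. The log2 ratio of Myh2-led over Myh4-led nuclei was 0.90 in WT and 0.88 in the knockout for the citric acid cycle, 0.41 and 0.32 for assembly factors, 0.19 and 0.18 for mitochondrial ribosomal proteins, and 0.04 (-0.09 to 0.17) and 0.11 (-0.04 to 0.25) for cytosolic ribosomal proteins. For the regulators it was 2.05 and 2.33, on a sum in which Esrrg held 9957 of 17134 UMIs in WT. The members, at 0.82 and 0.94, thus lay near the citric acid cycle genes.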

How the data were processed

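UMI counts per gene and nucleus were deposited, and per the file headers the authors made them with Cell Ranger 6.0.0. STAR, Seurat 4.1.1, mm10 and GRCm38 stand in the submitters' processing notes. The use of introns and strand in counting was not given in the sources used here. A nucleus was kept from 200 genes up and with no more than 5% of UMIs from mitochondrial genes. Both libraries were clustered together in scanpy 1.11.5 (2000 variable genes, none of them a member, 30 components, 15 neighbours, Leiden resolution 1, 20 clusters). A class name needed a marker score of 2 or more and 3 detected markers. No name was given, whatever the muscle markers, where 2 or more of the 10 leading genes were on a list of 23 repeat-rich or neuronal transcripts, which concerned cluster 1. Of the rest, clusters without a class name were called myonuclei-like where pan-myonuclear markers reached 0.5 times their median.

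UMIs were summed per library and class and given as CPM of the class total. Log2 ratios had 0.5 UMI added to each sum. Intervals are exact Poisson, conditional binomial or Clopper-Pearson at 95%. PCR and cell sampling add error that they do not cover. The procedure was tested on simulated counts. Annotation is GENCODE M21, and 14 of the 91 members overlap another gene on their own strand.

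Members, lists and cluster thresholds were chosen with earlier results of these data known. Members named are the 8 highest and 8 lowest by ratio, the 2 with the most UMIs per complex, isoform sets, complex II and those listed apart; the others named were chosen after their values were seen.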

Additional observations from a re-analysis of the deposited data

Results flagged for a closer look

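All members, complex IV and complex V had counting intervals of knockout over WT on opposite sides of 0 in some pairs of classes. These differences between classes were not tested, and 1 library per class and genotype stands behind each. Beside -0.06 in myonuclei-like nuclei, the log2 ratio of all members was 0.84 in adipocyte-like and 0.37 in macrophage-like nuclei. The median over all genes with at least 50 UMIs was 0.01 in myonuclei-like, 0.25 in adipocyte-like and 0.24 in macrophage-like nuclei. Complex IV was at -0.18 in myonuclei-like and 1.39 in adipocyte-like nuclei, and complex V at -0.16 and 0.75.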

How the results depend on the processing

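No paired analysis was possible because there was 1 library per genotype. The higher level of Myh2-led and Myh1-led over Myh4-led nuclei kept its sign in all 13 alternatives in both libraries, while the sum of knockout over WT did not.

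On the log2 scale of knockout over WT, the sum over myonuclei-like nuclei, -0.06 as reported, was -0.14 without Rn18s, mitochondrial, Malat1 and repeat transcripts in the denominator, 0.10 thinned to 500 UMIs, -0.18 with at least 500 genes, -0.24 in Y-marked nuclei, 0.024 with the unnamed muscle cluster counted, 0.032 without clusters, 0.026 at resolution 0.5 and 0.10 with each nucleus weighted equally. Chosen after seeing the data were the sums without Ndufs4, -0.12, at 700 to 1500 UMIs, 0.13, at 1500 to 3000, -0.17, from 3000 up, -0.44, and at the WT mix of leading genes, 0.082. The member median was 0.062 thinned, -0.28 in Y-marked nuclei, 0.048 without clusters and 0.027 weighted equally. Members at least 1.5-fold lower, 6 as reported, were 11 with the other denominator, 3 thinned, 11 in Y-marked nuclei, 2 without clusters, 2 at a minimum of 200 UMIs and 2 at a fold of 2. Members higher, 2 as reported, were 8 thinned, 5 at 1000 to 3000 UMIs, 7 weighted equally, 1 at a minimum of 200 UMIs and 1 at a fold of 2.

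By leading gene the ratios for Myh4-led, Myh1-led and Myh2-led nuclei were -0.054, 0.005 and 0.035 with the other denominator, 0.10, 0.23 and 0.38 thinned, and -0.06, -0.18 and -0.054 for Xist-marked knockout against Y-marked WT nuclei. Weighted equally they were 0.13, 0.25 and 0.26, at 700 to 1500 UMIs 0.20, 0.25 and 0.42, and from 3000 UMIs up -0.21, -0.19 and -0.05. Centred on the median of all genes, Myh1-led and Myh2-led were -0.05 and -0.031. Myh4-led and Myh1-led were -0.066 and 0.016 with at least 500 genes, and -0.11 and 0.014 in Y-marked nuclei. Myh4-led alone was 0.077 with the unnamed cluster, 0.11 without clusters and 0.081 at resolution 0.5. Myh4-led and Myh2-led were -0.11 and 0.01 at 1500 to 3000 UMIs, and -0.031 and 0.052 where the leading gene was ahead by at least 3 UMIs.

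Myh2-led over Myh4-led in the knockout was 0.85 centred, 1.05 thinned, 1.06 in Y-marked nuclei, 0.83 in Xist-marked nuclei and 0.88 without clusters. Myh1-led over Myh4-led was 0.71 in WT weighted equally, 0.83 in WT and 0.91 in the knockout with a lead of 3 UMIs, and 0.66 in Xist-marked knockout nuclei. Of 19 members and complexes examined singly with an interval on 1 side of 0, 8 changed sign in some alternative. In Xist-marked knockout against Y-marked WT nuclei Cox5b turned to 0.058, Cox4i1 to 0.092, Cox7a2l to 0.24 and Atp5c1 to 0.16. Thinned, Cox4i1 was 0.012, Cox7a2l 0.27 and complex IV 0.05. In Y-marked nuclei Ndufb4 was -0.21 and Sdha -0.08, and weighted equally complex V was 0.011. Complex V without the long Atp5o feature, -0.14, was also chosen after seeing the data. The cause of these shifts was not tested. At this depth the counting intervals of 49 of 78 members included no difference between the libraries.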
